A study of Mus musculus with 6 samples.

Results

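The enzymes described here make leukotrienes and prostanoids, lipid mediators formed from arachidonic acid, and were followed in whole aorta of wild-type and apoE-/- mice. The 10 genes were Alox5, Alox5ap, Lta4h and Ltc4s of the leukotriene arm, Ptgs1, Ptgs2, Ptgis and Hpgds of the prostanoid arm, and Alox15 and Pla2g7, which belong to neither. A probe set was taken when its gene symbol in the platform annotation was that of a member. This gave 12 of the 45101 probe sets on the array, for 9 of the 10 genes. No probe set carries the symbol Ptgs1 in that annotation, so cyclooxygenase 1 was not analysed here. Of the 9 genes, 8 lay above a filter on low intensity and were tested among 13031 genes, and Alox15 lay under it.

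Total RNA of whole aorta was hybridised to 6 single-colour oligonucleotide arrays. The 3 wild-type samples came from C57BL/6J mice of 32 weeks, and the 3 apoE-/- samples from mice of the same age and background that lack apolipoprotein E and develop high plasma cholesterol and atherosclerotic plaques. The labels do not give diet, sex or how many animals went into a sample, nor whether replicates are separate animals, so each p-value reflects the scatter of these 6 samples alone, and that scatter may be technical. The contrast asks how the expression of these enzymes differs between aorta with and without apolipoprotein E.

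As background, leukotriene synthesis starts at the nuclear envelope, where the membrane protein FLAP (Alox5ap) presents arachidonic acid to 5-lipoxygenase (Alox5). The product is turned either into leukotriene B4, which attracts leukocytes, by the hydrolase Lta4h, or into the cysteinyl leukotrienes by Ltc4s. Prostanoid synthesis starts with a cyclooxygenase, constitutive Ptgs1 or inducible Ptgs2, and terminal synthases such as Ptgis (prostacyclin) and Hpgds (prostaglandin D2) set which prostanoid is made. Prostacyclin from the vessel wall relaxes smooth muscle and restrains platelets. Alox5 and FLAP are found mainly in myeloid cells. FLAP is not itself an enzyme but is counted with the enzymes here.

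Array medians lay between 178 and 195.5 intensity units. The Apoe probe set read between 4309 and 5686 units on the wild-type arrays and between 56.3 and 462.1 on the apoE-/- arrays, which matches the genotype each of the 6 arrays is labelled with. Smooth muscle genes, which define the aortic wall, were bright, with Myh11 at 12690 ± 1068 units (SD, n = 3) in wild type. For the actin control, signal at the 3′ end over signal at the 5′ end was 1.16 to 1.21 in wild type and 1.15 to 1.16 in apoE-/-, and for Gapdh the genotypes overlapped. Of 10 macrophage markers, 8 rose and none fell. Their summed intensity was 14981 to 16249 units on the wild-type arrays and 29314 to 41235 on the apoE-/- arrays, lowest of the latter on apoE-/- replicate 2. In whole tissue, more cells of a type and more RNA per cell cannot be told apart.

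Expression of 4 of the 8 tested enzymes rose in apoE-/- aorta: the inducible cyclooxygenase Ptgs2, the prostaglandin D synthase Hpgds, the 5-lipoxygenase partner Alox5ap and the lipoprotein-associated phospholipase Pla2g7. None fell. The other 4 tested, Alox5, Lta4h, Ltc4s and Ptgis, did not pass the test. A gene was called where its p from limma, adjusted over the whole table by the Benjamini-Hochberg method, was under 0.05, a threshold that 3.15% of the 13031 genes passed as higher and 0.483% as lower. The 8 tested members had a median log2 change of 0.69, against -0.05 over all genes. Hpgds passed the filter only through its apoE-/- values, and without it 3 of 7 members rose and the median was 0.38. In 4 of the 8 every apoE-/- array lay above every wild-type array and in 1 every apoE-/- array lay below, against 10.9% and 13.8% of all genes. The 4 that lay above are the called members. Hpgds is among them, so this count too includes a gene tested only through its apoE-/- values.

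**Figure D1:**
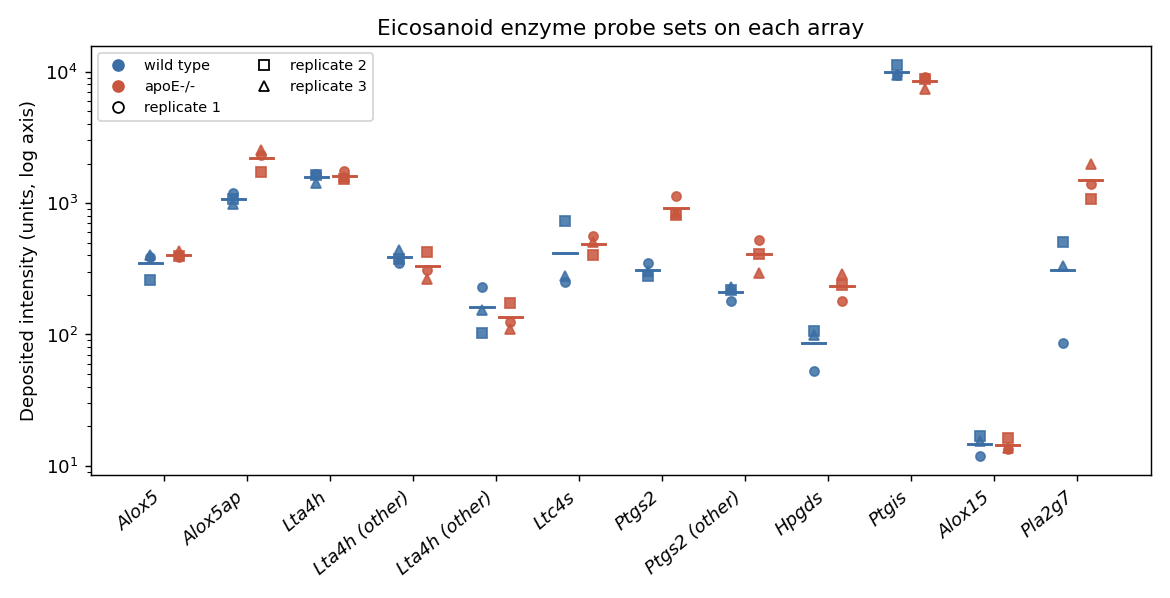
Deposited intensity (log axis) of the 12 probe sets on each of the 6 arrays, with blue symbols for wild type, red for apoE-/-, a symbol shape for each replicate number and a bar for each group's mean. The apoE-/- symbols lie above all wild-type symbols for Alox5ap, both Ptgs2 probe sets, Hpgds and Pla2g7, and Alox15 stays between 11.9 and 16.9 units on every array.

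In the leukotriene arm, FLAP was the only member called. Alox5ap read 1193.9, 1073.2 and 978.3 units on wild-type replicates 1, 2 and 3, and 2338.2, 1739.7 and 2559.2 units on apoE-/- replicates 1, 2 and 3. The groups do not overlap, and apoE-/- replicate 2 is the lowest of its group, as it is for the macrophage markers. The mean went from 1082 ± 108 to 2212 ± 424 units (SD, n = 3), a ratio of 2.05. The log2 change was 1.01 ± 0.15 (SE, limma adjusted p = 0.00956), on the log2(intensity + 16) scale used for all changes here, which understates those of dim genes. Without apoE-/- replicate 1 the log2 change was 0.96 and the call was lost (adjusted p = 0.0601).

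The lipoxygenase that FLAP serves did not pass the test. Alox5 read 388.8, 262.1 and 405.0 units on wild-type replicates 1 to 3 and 391.1, 393.0 and 429.4 units on apoE-/- replicates 1 to 3. Wild-type replicate 2 reads low, and the other 5 arrays lie between 388.8 and 429.4 units. The log2 change was 0.22 ± 0.18 (SE, adjusted p = 0.571) with a 95% interval from -0.19 to 0.62. The change of Alox5ap exceeded that of Alox5 by 0.79 in log2, and the array-wise difference did not overlap between the genotypes. An exact two-sided permutation test over the arrays gave p = 0.1, the smallest it can give with 3 against 3, and 0.15 after Benjamini-Hochberg adjustment over the 3 pairs compared. The pair of Hpgds and Ptgis, given below without its test, counted in that adjustment, so 0.15 is lower than it would be without that pair.

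The enzymes that use the 5-lipoxygenase product were not called. The brightest of 3 Lta4h probe sets, which represents the gene in the fit, read 1666.8, 1646.2 and 1435.0 units in wild type and 1761.8, 1514.8 and 1585.8 units in apoE-/-. The groups interleave, with a log2 change of 0.03 ± 0.10 (SE, adjusted p = 0.891) and a 95% interval from -0.20 to 0.27. The other Lta4h probe sets overlapped as well, at 390.6 ± 47.1 against 331.7 ± 82.3 units and 162.7 ± 63.9 against 136.3 ± 32.9 units (SD, n = 3), with log2 differences of -0.25 and -0.19. The direction of Lta4h thus depends on the probe set.

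Ltc4s varied more among the wild-type arrays than between the genotypes. It read 249.3, 724.7 and 276.5 units on wild-type replicates 1 to 3 and 562.1, 404.0 and 505.9 units on apoE-/- replicates 1 to 3. Wild-type replicate 2 lies above every apoE-/- array, and the other wild-type arrays lie below them all. The log2 change was 0.38 ± 0.35 (SE, adjusted p = 0.615), and it was 0.85 without wild-type replicate 2 (adjusted p = 0.0566). The change of Alox5ap exceeded that of Ltc4s by 0.63 in log2, with an exact two-sided permutation p = 0.3 and 0.3 after adjustment over the 3 pairs.

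Adipocyte genes also varied among these arrays. Of 6 listed adipocyte markers, 3 were tested (Adipoq, Cidec and Ucp1), none was called, and their summed intensity was 11633, 23054 and 14237 units on wild-type replicates 1 to 3 and 16355, 9546 and 11362 units on apoE-/- replicates 1 to 3. Within each genotype the arrays stand in the same order for this sum as for Ltc4s, whereas the adipocyte genes had negative log2 changes, with a median of -0.45. In wild type this order comes from Ucp1. Adipoq and Cidec were lowest on wild-type replicate 3, whereas Ltc4s was lowest on replicate 1. The part of adipocyte genes in the Ltc4s values was not tested. By the smallest root mean square difference of log2 profiles over the 6 arrays, each centred on its wild-type mean, the genes most like Ltc4s were Dhcr7 (0.159), Cd36 (0.197) and Cebpa (0.202).

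The same measure placed Ms4a6c (0.0639), Ptpn1 (0.0742) and Cd44 (0.0829) nearest to Alox5ap, and all 3 were called higher. The measure includes the genotype change, so the genes nearest to a riser mostly rise by construction. Pibf1 (0.0426), Slc35d2 (0.0646) and Arfgap1 (0.0654) were nearest to Alox5, and Phc2 (0.0269), Rph3a (0.0278) and Ap5b1 (0.0288) to Lta4h. None of these 6 was called.

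In the prostanoid arm, the inducible cyclooxygenase rose. The brighter Ptgs2 probe set read 351.0, 279.2 and 302.8 units on wild-type replicates 1 to 3, and 1136.1, 805.6 and 834.3 units on apoE-/- replicates 1 to 3. The lowest apoE-/- array is more than double the highest wild-type array, and the highest is replicate 1. The mean went from 311 ± 36.6 to 925.3 ± 183 units (SD, n = 3), a ratio of 2.98, and the log2 change was 1.51 ± 0.16 (SE, limma adjusted p = 0.00216). Ptgs2 was called in all 9 processing alternatives and in all 6 fits that left out an array, with adjusted p-values from 0.00179 to 0.013.

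The other Ptgs2 probe set read 178.6, 219.2 and 230.7 units in wild type and 521.6, 409.6 and 294.2 units in apoE-/-. Its groups do not overlap either, but apoE-/- replicate 3 lies close to the wild-type arrays. Its log2 difference was 0.88, and it was not called when all 27023 kept probe sets were fitted one by one (limma adjusted p = 0.0737). Tnfrsf11b (0.0797), the predicted gene Gm38983 (0.113) and the macrophage lysozyme Lyz2 (0.118) had the profiles nearest to Ptgs2, and all 3 were called higher. Gm38983 read 63.1 to 88.4 units on the wild-type arrays and passed the filter only through its apoE-/- values.

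Hpgds, the haematopoietic prostaglandin D synthase, rose from low intensities. It read 52.3, 105.7 and 99.4 units on wild-type replicates 1 to 3 and 181.4, 236.9 and 288.6 units on apoE-/- replicates 1 to 3. All wild-type arrays lie under the filter, which corresponds to 119 units, so the gene was tested only because its apoE-/- values are higher. The mean went from 85.8 ± 29.2 to 235.6 ± 53.6 units (SD, n = 3), and the log2 change was 1.33 ± 0.28 (SE, limma adjusted p = 0.038). The call was lost with no filter (adjusted p = 0.0729). It was also lost without wild-type replicate 1 (0.0872) or 3 (0.0737), and without apoE-/- replicate 1 (0.0843), 2 (0.0698) or 3 (0.16). Without wild-type replicate 2 it was kept (adjusted p = 0.0478).

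Ptgis, the cytochrome P450 enzyme that makes prostacyclin, was not called. It read 9435.6, 11165 and 9512.8 units on wild-type replicates 1 to 3 and 9167.5, 8746.4 and 7399.9 units on apoE-/- replicates 1 to 3. Every apoE-/- array lies below every wild-type array, but by only 268 units at the nearest pair. The log2 change was -0.25 ± 0.11 (SE, limma adjusted p = 0.278) with a 95% interval from -0.51 to 0.004. Among smooth muscle markers, 7 of 7 had negative log2 changes, with a median of -0.16 and none called, and their part in the Ptgis values was not tested.

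The third pair was Hpgds and Ptgis, whose log2 changes differed by 1.58. Since Hpgds passed the filter only through its apoE-/- values, this difference is given without its test. The planned comparison of Ptgs2 with Ptgs1 was not made, since Ptgs1 had no named probe set. Sox9 (0.267), Gatm (0.269) and Lat2 (0.278), all called higher, had the profiles nearest to Hpgds, and Kif24 (0.0472), Ubxn2a (0.0474) and Akt2 (0.0475), none called, those nearest to Ptgis.

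Both arms held called and uncalled enzymes. Averaged over its 4 enzymes, the leukotriene arm lay 0.50, 0.23 and 0.49 above the wild-type mean in log2 on apoE-/- replicates 1 to 3, or 0.41 ± 0.16 (SD, n = 3). The prostanoid arm, averaged over its 3 measured enzymes, lay 0.90, 0.83 and 0.86 above, or 0.86 ± 0.03 (SD, n = 3). On the wild-type arrays the arms ranged from -0.11 to 0.15 and from -0.15 to 0.11. The leukotriene mean was lower than the prostanoid mean by 0.45 in log2 on the apoE-/- arrays, with -0.40, -0.60 and -0.37 on replicates 1 to 3 against 0.11, 0.05 and -0.16 in wild type. This difference is a description without a test, because the enzymes were chosen with earlier results known, and the prostanoid mean lacks Ptgs1. It sums 1 riser and 3 uncalled enzymes on the leukotriene side, and 2 risers and the uncalled Ptgis, with a negative log2 value, on the prostanoid side. The difference rests in large part on Hpgds. Without Hpgds the prostanoid mean was 0.63 ± 0.19 (SD, n = 3) and the difference was -0.22, with -0.34, -0.34 and 0.02 on apoE-/- replicates 1 to 3 against -0.08, 0.15 and -0.06 in wild type, so that the genotypes overlapped.

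**Figure D2:**
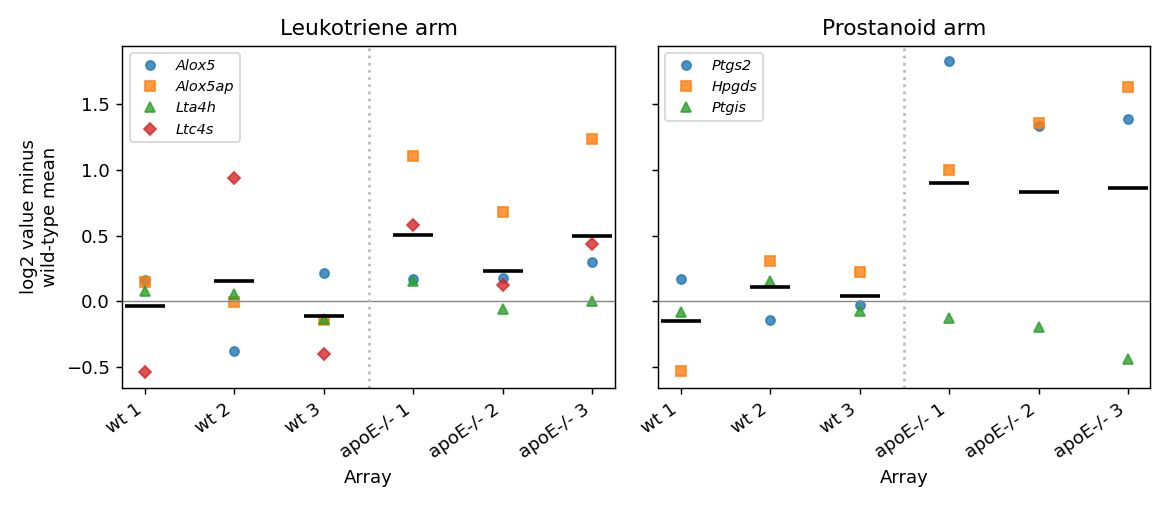
The log2 value of each tested enzyme minus its wild-type mean on the 6 arrays, for the 4 enzymes of the leukotriene arm (left) and the 3 measured enzymes of the prostanoid arm (right), with a black bar for the arm's mean on each array. On the apoE-/- arrays the leukotriene mean lies between 0.23 and 0.50 and the prostanoid mean between 0.83 and 0.90, while Ptgis lies below zero on all 3. With Hpgds left out, the prostanoid mean lies between 0.48 and 0.85.

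Outside both arms, Pla2g7 had the largest change of the 8 tested enzymes. It encodes the phospholipase that travels on lipoproteins and cleaves platelet-activating factor and oxidised phospholipids. It read 86.4, 503.3 and 332.1 units on wild-type replicates 1 to 3 and 1404.9, 1070.3 and 1999.1 units on apoE-/- replicates 1 to 3. The wild-type arrays spread widely, yet the highest of them is below the lowest apoE-/- array by a factor of more than 2. The mean went from 307.3 ± 209.6 to 1491 ± 470 units (SD, n = 3), and the log2 change was 2.46 ± 0.52 (SE, limma adjusted p = 0.0386), the 38th largest rise among the 13031 genes.

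The Pla2g7 call was lost with no filter (adjusted p = 0.0714) and with no intensity trend (0.0803). It was also lost without wild-type replicate 3 (0.0795), and without replicate 1 (0.141) or 3 (0.158) of the apoE-/- group, while the log2 change stayed between 1.78 and 2.95 over the 6 fits that left out an array. Il18bp (0.314, not called), Ccl2 (0.351, called higher) and Slurp1 (0.42, called higher) had the nearest profiles, at distances larger than those of the other members. On wild-type replicates 1 to 3 Il18bp read 31, 167.9 and 106.6 units and Slurp1 read 47, 156.6 and 82.3 units. Ccl2 read 20.3 to 85.9 units on these arrays. The mean log2 wild-type value of each of these genes lies under the filter, so each passed it only through its apoE-/- values.

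Alox15, the 12/15-lipoxygenase, was at the bottom of the intensity range. Its only probe set read 11.9, 16.9 and 15.5 units on wild-type replicates 1 to 3 and 13.4, 16.4 and 13.7 units on apoE-/- replicates 1 to 3. The groups overlap fully, and the gene was under the filter and not tested. When no filter was applied its log2 change was -0.01 ± 0.19 (SE, limma adjusted p = 0.985).

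The changes of the 4 called enzymes ran beside a rise of macrophage genes. The 8 macrophage markers that rose were Adgre1, Cd14, Cd68, Fcgr1, Itgam, Lyz2, Mrc1 and Tyrobp. The list of 10 had a median log2 change of 1.22, from 0.02 for the haemoglobin scavenger receptor Cd163 to 2.87 for the lysosomal glycoprotein Cd68. Lyz2, the marker of highest mean, changed by 1.45 ± 0.13 (SE), next to 1.51 for Ptgs2, 1.33 for Hpgds, 1.01 for Alox5ap and 2.46 for Pla2g7. The mean of the 10 markers on apoE-/- replicates 1 to 3 was 1.41, 1 and 1.58 in log2 above wild type, and Alox5ap and Pla2g7 follow the same order, whereas Ptgs2 is highest on replicate 1 and Hpgds lowest there. Among the single markers, Lyz2 and the brightest Csf1r probe set had the order of Ptgs2 on these arrays, and Cd163 that of Hpgds. The others followed the order of the mean. The part of macrophage content in the rises of the 4 enzymes was not tested. Cd163 and Csf1r, the receptor for macrophage colony-stimulating factor, were the markers not called. This holds for the brightest Csf1r probe set, with a log2 change of 0.50 (adjusted p = 0.0999). Of its other probe sets, fitted one by one, one was called at 1.09 (limma adjusted p = 0.0104) and one was not at 0.68 (0.0572).

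Markers of other blood cells known for these enzymes did not pass. Of 6 neutrophil, 7 mast cell and 6 platelet markers tested, none was called. Their median log2 changes were 0.16, 0.12 and -0.34. The brightest were S100a8, Kit and Pf4. Log2 changes were positive for 4 of 6 neutrophil markers, 6 of 7 mast cell markers and 1 of 6 platelet markers. Kit was the negative mast cell marker and Pf4 the positive platelet marker, so these 2 went against their lists. S100a8 read 582.7 ± 302 units in wild type and 671 ± 249 units in apoE-/-, Kit 679.7 ± 266 and 530.2 ± 131 units, and Pf4 3698 ± 610 and 3763 ± 321 units (SD, n = 3). The 5 eosinophil markers with a probe set all lay under the filter, and of 2 T cell and 3 B cell markers tested none was called.

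Markers of 3 further tissues of the vessel and its surroundings held called genes. Of 6 fibroblast markers, only the collagen-binding proteoglycan Lum was called, with a rise of 1.02 ± 0.14 in log2 (SE, limma adjusted p = 0.00582). The list's mean was 0.46, 0.23 and 0.27 above wild type on apoE-/- replicates 1 to 3, against at most 0.09 on a wild-type array. Its median log2 change was lower, at 0.16, with single markers from -0.01 for Pi16 to 1.02 for Lum. Of 7 endothelial markers, the sialomucin Emcn rose, by 0.76 ± 0.16 in log2 (SE, adjusted p = 0.0386), all 7 had positive log2 changes, and the summed intensity overlapped, at 7926 to 11335 units in wild type and 10832 to 13395 in apoE-/-. Of 4 skeletal muscle markers tested, Casq1 fell by 1.08 and Ckm fell by 0.71 in log2 (adjusted p = 0.00686 and 0.0218), and all 4 were lower on every apoE-/- array. Their summed intensity was 2739, 2620 and 11495 units on wild-type replicates 1 to 3 and 1285 to 1514 units on the apoE-/- arrays. Wild-type replicate 3 stands apart, with the skeletal actin Acta1 at 6440 units against 229.5 and 329.3 on the other wild-type arrays. Without that array Ptgs2 and Alox5ap were still called, and Hpgds and Pla2g7 were not. In that fit the log2 changes of Hpgds and Pla2g7 were 1.44 and 2.66, against 1.33 and 2.46 with all arrays. Over all genes it called 233, against 473 with all arrays. The part of these tissues in the values of the enzymes was not tested.

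**Figure D3:**
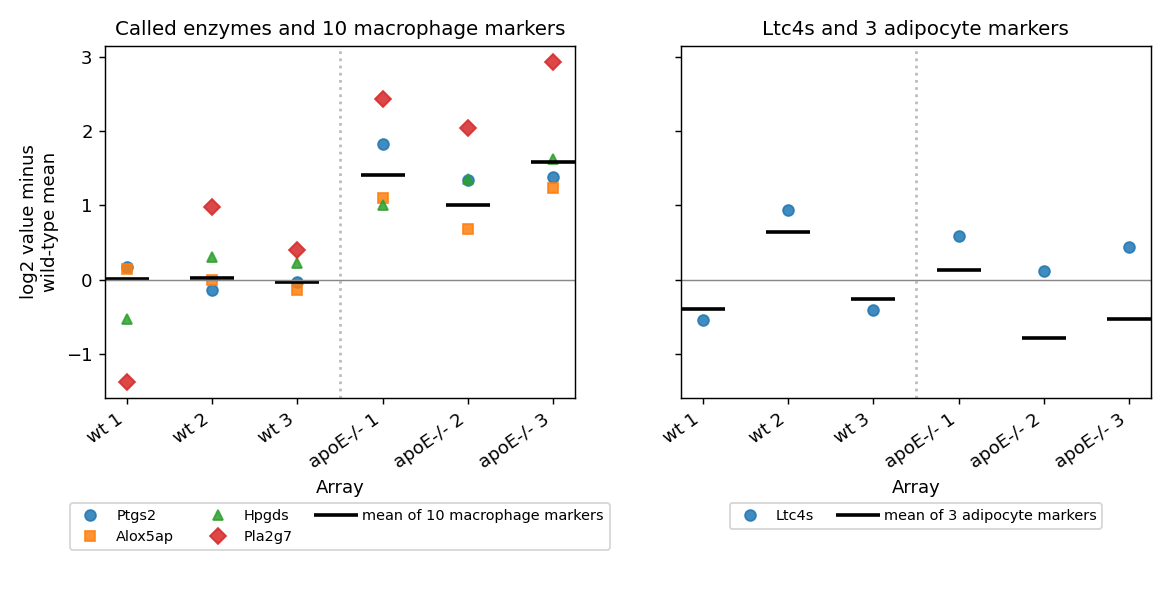
The log2 value minus the wild-type mean on each array for the 4 called enzymes beside the mean of 10 macrophage markers (left), and for Ltc4s beside the mean of 3 adipocyte markers (right). The macrophage mean lies between 1 and 1.58 on the apoE-/- arrays, and wild-type replicate 2 is the highest array for both Ltc4s (0.94) and the adipocyte mean (0.65).

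The start regions of the called enzymes are shown to place known myeloid and inducible promoter motifs in them. They are the 250 bases before the RefSeq transcription start (GRCm38.p6), 5′ to 3′ on the gene's strand. Capitals mark a motif match. Entries were found for Ptgs2 (chr1:150099781-150100030, plus strand), Hpgds (chr6:65144731-65144980, minus strand) and Pla2g7 (chr17:43568201-43568450, plus strand) among the called genes, and not for Alox5ap.
Ptgs2: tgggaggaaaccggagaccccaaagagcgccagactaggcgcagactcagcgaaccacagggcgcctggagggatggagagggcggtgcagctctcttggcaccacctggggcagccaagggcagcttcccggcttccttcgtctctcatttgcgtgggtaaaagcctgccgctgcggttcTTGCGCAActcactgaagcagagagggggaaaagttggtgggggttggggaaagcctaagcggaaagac
Hpgds: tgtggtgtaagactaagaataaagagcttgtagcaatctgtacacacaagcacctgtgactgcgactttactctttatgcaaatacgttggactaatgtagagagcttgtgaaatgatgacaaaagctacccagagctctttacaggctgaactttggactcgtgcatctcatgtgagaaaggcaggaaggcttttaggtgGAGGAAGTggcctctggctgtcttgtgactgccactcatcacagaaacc
Pla2g7: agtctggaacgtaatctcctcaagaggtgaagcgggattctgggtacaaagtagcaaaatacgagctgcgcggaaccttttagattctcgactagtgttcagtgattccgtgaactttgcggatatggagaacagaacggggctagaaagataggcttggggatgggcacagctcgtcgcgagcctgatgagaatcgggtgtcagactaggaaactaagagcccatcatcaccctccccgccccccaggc

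In 7 members with an entry, windows of 300 bases that also held the 50 after the start were searched on both strands. Hpgds holds GAGGAAGT, a site type bound by the myeloid factor PU.1, at bases -49 to -42, as does Ptgs1 at -24 to -17, and 3.2% of 32851 mouse start regions hold it. Ptgs2 holds the C/EBP palindrome TTGCGCAA at -69 to -62, found in 0.183% of the regions. After its annotated start it holds a CRE core, TGACGT on the minus strand, at 13 to 18 (7.51% of regions), which overlaps an E-box, CACGTG, at 17 to 22 (7.15%). The full CRE TGACGTCA (1.79% of regions), the AP-1 site TGANTCA (7.81%), TATAAA (13.6%) and the NF-kB consensus (8.46%) had no match in any of the 7 windows. Pla2g7, Alox5, Lta4h and Ltc4s held none of the motifs searched. A match is a description of letters and not of binding.

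Beyond the 10 enzymes, 59 further genes of the eicosanoid and platelet-activating factor pathways were followed, of which 39 were tested, 14 lay under the filter and 6 had no named probe set. Expression of 2 rose, the prostaglandin transporter Slco2a1 and the lysosomal phospholipase Pla2g15, and none fell, against 3.15% and 0.483% of all genes. Their median log2 change was -0.05, the same as over all genes.

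Slco2a1, which carries prostaglandins into cells for breakdown, read 796.7, 804.6 and 605.4 units on wild-type replicates 1 to 3 and 2053.5, 1335.9 and 1820.7 units on apoE-/- replicates 1 to 3. The groups do not overlap on this or on any of its other 3 probe sets, whose log2 differences were 0.89, 1.05 and 0.96. The log2 change was 1.21 ± 0.18 (SE, limma adjusted p = 0.00837). Hpgd, the dehydrogenase that inactivates prostaglandins after uptake, read 506.1 ± 51.9 and 685 ± 93.9 units (SD, n = 3), with no overlap and a log2 change of 0.42 ± 0.14 (SE), and did not pass (adjusted p = 0.156).

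Pla2g15 went from 889.7 ± 48.0 to 1656 ± 297 units (SD, n = 3). Its change in log2 was 0.87 ± 0.14 (SE, adjusted p = 0.0124 by limma). Its other probe set had a log2 difference of 0.55, also without overlap, and was not called when fitted on its own (0.108). Leaving out wild-type replicate 3, or else replicate 1 or 3 of the apoE-/- group, ended this call. Of the uncalled phospholipases the calcium-independent Pla2g6 had the smallest p, with 1493 ± 215 and 1244 ± 141 units (SD, n = 3) and a log2 change of -0.26 ± 0.13 (SE, adjusted p = 0.338). The cytosolic phospholipase Pla2g4a, which releases the arachidonic acid that both arms use, read 1971.4, 1929.6 and 1911.3 units in wild type and 1966.4, 1925.6 and 1882.2 units in apoE-/-. Its log2 change was -0.01 ± 0.08 (SE, adjusted p = 0.963), with a 95% interval from -0.19 to 0.17. It was named after its values were seen.

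No other lipoxygenase or prostanoid synthase passed. The smallest p in these groups belonged to the epidermal lipoxygenase Aloxe3, whose change in log2 was -0.45 ± 0.14 (SE, adjusted p = 0.145 by limma), and to the thromboxane synthase Tbxas1. Tbxas1 read 229.5, 246.7 and 282.4 units in wild type and 490.6, 303.0 and 569.0 units in apoE-/-, without overlap, and apoE-/- replicate 2 is near the wild-type arrays. Its log2 change was 0.77 ± 0.23 (SE, adjusted p = 0.121). The inducible prostaglandin E synthase Ptges, named after its values were seen, read 313.8 ± 87.0 and 263.9 ± 15.2 units (SD, n = 3), with a log2 change of -0.21 ± 0.20 (SE, adjusted p = 0.621).

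Receptors did not pass either. The cysteinyl leukotriene receptor Cysltr1 was the only leukotriene receptor tested and read 138.7 ± 15.4 and 266.1 ± 70.7 units (SD, n = 3), without overlap, and changed by 0.84 ± 0.21 in log2 (SE, adjusted p = 0.0738 by limma). The leukotriene B4 receptor Ltb4r1 lay far under the filter, between 5.6 and 21.5 units over all arrays. Cysltr2, another cysteinyl leukotriene receptor, lay under it as well and went the other way from Cysltr1. It read 121.8 ± 15.2 units in wild type and 85.2 ± 13.4 units in apoE-/- (SD, n = 3), without overlap, and was not tested. Among 6 prostanoid receptors tested, the prostaglandin E receptor Ptger4 had the smallest p, at 643.2 ± 144.8 and 1095 ± 287 units (log2 change 0.75 ± 0.22, SE, adjusted p = 0.117). Another receptor for the same ligand, Ptger3, had a log2 change of -0.59 ± 0.17 (SE, adjusted p = 0.121). Both are without overlap between the genotypes, in opposite directions, and Ptger3 was named after its values were seen. The other prostaglandin E receptors, Ptger1 and Ptger2, lay under the filter and were not tested. Ptger2 went the way of Ptger4, at 82.7 ± 18.2 and 158 ± 38.3 units (SD, n = 3) without overlap, and the Ptger1 probe sets overlapped. In the platelet-activating factor group the acyltransferase Lpcat2 came nearest, at 261.6 ± 27.6 and 492.9 ± 139 units (log2 change 0.84 ± 0.21, SE, adjusted p = 0.0706). Its other probe set went the other way, at 193.1 ± 6.38 and 150.2 ± 30.4 units, with a log2 difference of -0.35. The other probe sets of Cysltr1 and Ptger4 had log2 differences of 0.61 and 0.80, and none of these 3 was called when fitted on its own.

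Without apoE-/- replicate 2, Lpcat2, Tbxas1 and Ptger3 passed as well, Ptger3 as lower, which made 5 pathway genes called. Without that array 686 genes were called over all genes, against 473 with it. Only Slco2a1 among the pathway genes was called in all 6 fits that left out an array. Cyp4f18, a cytochrome P450 enzyme that oxidises leukotriene B4, lay under the filter and was the only further pathway gene called with no filter. Its brighter probe set read 65.2, 29.1 and 13.7 units on wild-type replicates 1 to 3 and 143.4, 156.4 and 241.1 units on apoE-/- replicates 1 to 3, and its other probe set overlapped between the genotypes at 35.9 ± 19.7 and 24.8 ± 4.57 units (SD, n = 3). Both probe sets are dim, and the gene was named after its values were seen.

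**Figure D4:**
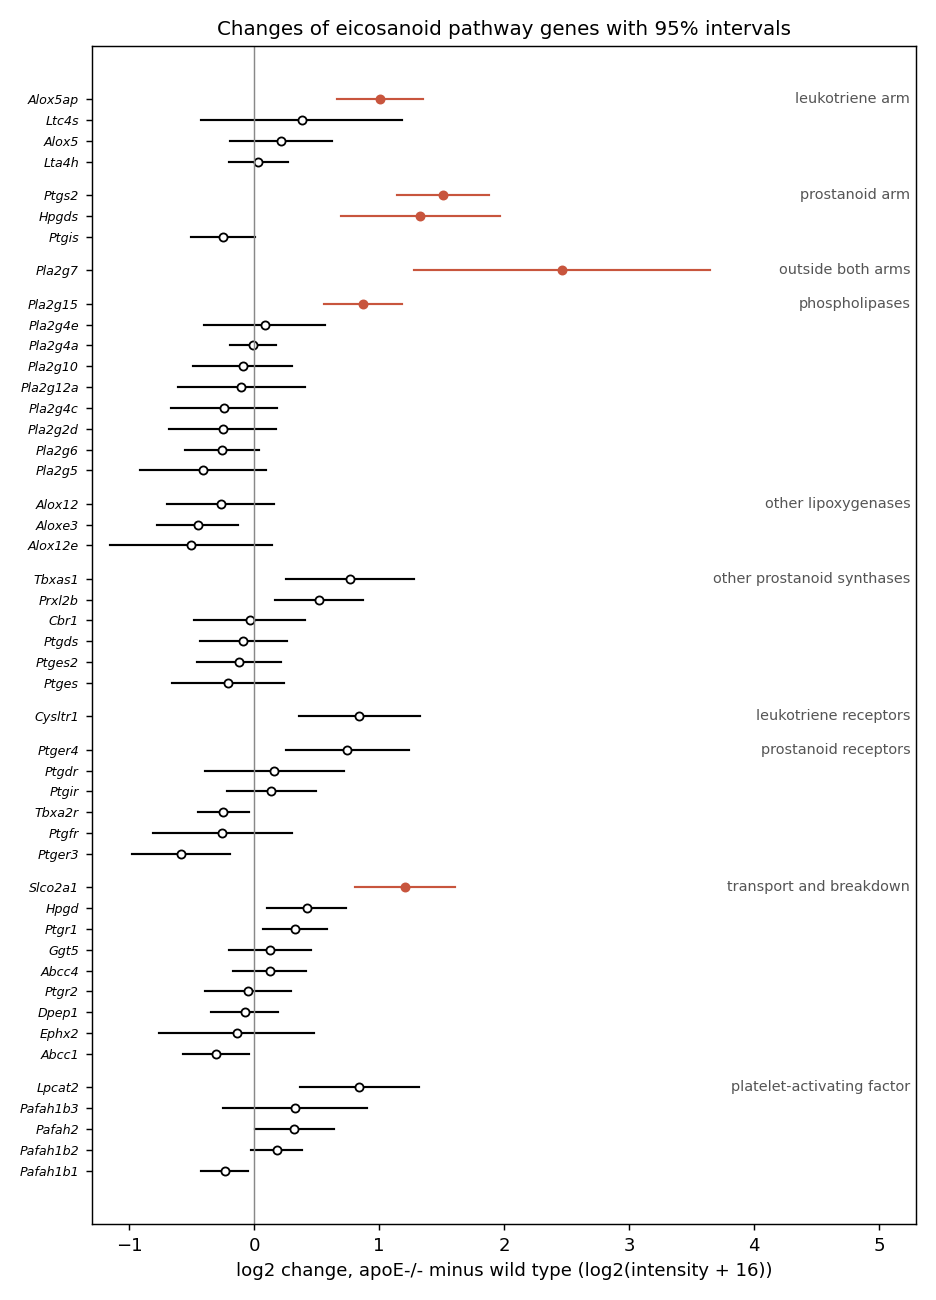
The log2 change (apoE-/- minus wild type) of the 8 tested members and of 39 further pathway genes by role, as points with 95% intervals from limma, filled red where called and open black where not. Red points are Alox5ap, Ptgs2, Hpgds, Pla2g7, Pla2g15 and Slco2a1, and the other genes lie between -0.59 (Ptger3) and 0.84 (Cysltr1).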

How the data were processed

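The table deposited by the authors holds 1 linear intensity for each probe set and array. Every array had the same mean intensity (500.002 after trimming 2% of probe sets at each end), so the authors had scaled the arrays. The sources used here do not give the software, and the table has no detection calls. Symbols came from the platform annotation, which can be old, updated by gene identifier (34958 probe sets with 1 symbol, of which 34754 were found in the GRCm38.p6 table, 932 with several, which were not used, and 9147 with none). Intensities were taken as log2(intensity + 16). The 64 control probe sets and the lower 40% of the rest by mean log2 value over all 6 arrays were left out, and each gene was represented by its kept probe set of highest mean.

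The genotype contrast was fitted in R 4.3.3 with limma 3.58.1 (lmFit, eBayes with intensity trend) and Benjamini-Hochberg adjustment over 13031 genes. The small number of arrays limits precision. The members, gene lists and tests were chosen with earlier results of these data known. By rule, the genes named are the members, called pathway genes, the uncalled gene of smallest p in each pathway list, the 3 most similar profiles for each member, and called or brightest markers of macrophages, neutrophils, mast cells and platelets. All other markers named, and Ltb4r1, Cysltr2, Ptger1 and Ptger2, were chosen after their values were seen. Alternatives were log offsets of 1 and 64, quantile normalization, median centring, no filter, no trend, every probe set, the median of probe sets, a replicate block, leaving out each array and, added later, leaving Hpgds out of the prostanoid mean.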

Additional observations from a re-analysis of the deposited data

How the results depend on the processing

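With no filter, 2 members were called in place of 4, with 18193 genes tested, and leaving out 1 array at a time gave 1 to 4 called members and 1 to 5 called pathway genes. The other 8 processing alternatives gave 3 or 4 members. The log2 change of Lta4h turned to -0.25 with the median of its probe sets and ranged from -0.034 to 0.081 with arrays left out, never called. None of the 4 called members changed sign in any alternative. The arm difference lay between -0.53 and -0.33 in those 9 alternatives and with an array left out, and was -0.22 with Hpgds left out of the prostanoid mean, an alternative chosen after seeing the data. Over all genes, 473 were called in the main setting, 309 with no intensity trend, 736 of 27023 with every probe set fitted, 301 with a replicate block, and 153 to 686 with an array left out. Same-numbered arrays had deviations from the group means that correlated at -0.104, -0.181 and -0.0519. No values for differently numbered arrays were set beside these, so they do not decide whether the replicate numbers pair the arrays. The fit with the replicate block called the same 4 members, with log2 changes equal to the main ones, and 2 pathway genes. Probe sets as dim as those of Alox15 and wild-type Hpgds may hold mostly background, which the deposited table cannot show.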
